A study of Mus musculus with 17 samples.

Results

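The transcripts of 10 genes of the BMP-SMAD pathway and hepcidin were measured by RNA-seq in mice with a liver-specific deletion of NgBR, the product of the gene Nus1, both in liver tissue and in tumors. The 10 genes were Hamp, Hamp2, Bmp2, Bmp6, Smad1, Smad6, Smad7, Smad9, Id1 and Id3. They were chosen by symbol out of 24352 genes listed in either of the 2 count tables, and all 10 were listed in both. Smad9 was picked because it was among the most changed genes between the N-LKO and WT livers on WD, so that comparison gives no test of these genes and its values are a description.

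NgBR pairs with Dhdds to form the cis-prenyltransferase that makes dolichol, a lipid carrier of protein glycosylation. The groups were WT livers (n = 4) and N-LKO livers (n = 4) from the high-fat diet (HFD), and WT livers (n = 3), N-LKO livers (n = 3) and tumors of N-LKO mice (n = 3) after a Western-type diet (WD) high in fat and cholesterol. Both diets lasted 16 weeks and followed chow. All animals were males of the C57BL6 background, and the deletion came from an albumin-Cre transgene acting on a loxP-flanked Nus1. Albumin-Cre is active in hepatocytes, so endothelial and Kupffer cells keep the gene. The controls are labelled WT, and whether they carry loxP or Cre alleles is not given in the labels. Replicates are labelled as biological, and the labels do not say whether a tumor and a liver came from the same animal.

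Hepcidin is a peptide hormone made by hepatocytes. It binds the iron exporter ferroportin and has it degraded, which lowers the release of iron into the blood. Its gene Hamp is controlled mainly by bone morphogenetic proteins: BMP2 and BMP6, made by the endothelium of the liver sinusoids, bind receptors and the coreceptor hemojuvelin on hepatocytes, which then phosphorylate SMAD1, SMAD5 and SMAD9 (also called SMAD8). These enter the nucleus with SMAD4 and raise Hamp, Id1, Id3, Smad6 and Smad7. SMAD6 and SMAD7 are inhibitory SMADs that close a negative feedback loop. Interleukin-6 acts on Hamp through STAT3. Mice carry another hepcidin gene, Hamp2, whose peptide is not known to regulate ferroportin as hepcidin does.

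Total counts per library were 9096110 to 12215784 under HFD and 15494731 to 20200618 under WD. Levels below are CPM values (counts scaled by the TMM-adjusted library size), and each table was scaled on its own, so no HFD group is compared with a WD group. TMM factors were 0.943 to 1.05 under HFD and 0.806 to 1.15 under WD, with the lowest in WT liver replicate 2. Nus1 was at 82.5 to 96.2 CPM in WT and at 29.4 to 38.0 CPM in N-LKO livers under HFD, and its WD means were 94.5 ± 5.57 CPM in WT livers, 46.7 ± 4.75 CPM in livers without NgBR and 35.8 ± 7.59 CPM in the tumors (SD, n = 3 each). The libraries of every deletion group lay below all WT libraries of their diet. The 8 hepatocyte markers summed to 34300 to 80300 CPM across the libraries, and none of the markers of 6 liver cell types that a table lists was at 0 in every library of a group.

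The 2 hepcidin genes lie 17686 bases apart on the minus strand of chromosome 7, Hamp at chr7:30942368-30944032 and Hamp2 at chr7:30922372-30924681 (GRCm38, GENCODE annotation). The stretches of 150 bases before their RefSeq starts are shown here, at chr7:30944030-30944179 for Hamp and at chr7:30924182-30924331 for Hamp2 (GRCm38.p6, minus strand, from RefSeq). For Hamp the RefSeq and GENCODE starts lie close together. The Hamp2 stretch lies inside the GENCODE gene, whose start is farther upstream, so the stretches are not equivalent under that annotation. Whether their letters bear on the levels was not tested. Capitals mark the hexamer GGCGCC, the core of a BMP-responsive element, with the aligned hexamer of Hamp2, and the match to TTCNNNGAA, a STAT motif.
Hamp: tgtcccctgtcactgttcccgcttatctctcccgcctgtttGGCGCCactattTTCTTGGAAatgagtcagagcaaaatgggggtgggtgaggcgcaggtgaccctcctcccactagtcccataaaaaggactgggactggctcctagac
Hamp2: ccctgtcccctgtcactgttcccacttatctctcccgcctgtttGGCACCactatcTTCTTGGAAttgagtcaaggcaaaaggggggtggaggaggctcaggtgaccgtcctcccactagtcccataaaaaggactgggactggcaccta
The alignment of these stretches had 153 columns, of which 135 (88.2%) were identical, 12 were substitutions and 6 were gaps. The hexamer GGCGCC began at -109 from the start of Hamp and carried the substitution G45A in Hamp2, with positions counted from 1 at the 5′ end of the printed Hamp stretch. The STAT motif was present in both, at -97 in Hamp and at -94 in Hamp2.

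Windows of 300 bases (250 before the start) were listed by RefSeq for 7 of the 9 genes outside chromosome 18 (Bmp2 and Id1 had no entry, and Smad7 on chromosome 18 was not searched). On both strands, GGCGCC was found in 2 of the 7 windows (Hamp, and Smad9 at -51), beside 11.9% of the 32851 windows of the table. CAGAC, the SMAD binding element, was in 4 of 7 windows (Hamp, Hamp2, Id3 and Bmp6), beside 49.6% of all windows. CACGTG, an E-box, was in 1 (Bmp6), beside 7.15%, and TTCNNNGAA in 2 (Hamp and Hamp2), beside 8.30%. None of these 4 motifs contains another. A match is a description of the letters and not of binding.

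Hamp was the most abundant of the 10 genes per length in the livers. In WT livers on WD its mean level was 553 CPM per kilobase of exon, followed by Id3 at 20.1, Id1 at 8.84, Bmp2 at 5.20, Smad9 at 4.75, Smad7 at 4.54, Smad1 at 3.37, Smad6 at 1.85, Hamp2 at 1.59 and Bmp6 at 0.961 CPM per kilobase. The SD of Hamp in this group was 182 CPM around a mean of 227 CPM (n = 3). The reads of Hamp and Hamp2 could mostly be told apart: exact copies in the other transcript were found for 13 of the 336 windows of 75 bases in Hamp (3.87%) and for 20.5% of its windows of 45 bases. The study's sources give both read lengths. The deposited counts of both genes were whole numbers in all 17 libraries, although the authors' estimated counts divide shared reads.

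Under HFD, the deletion was compared with WT in livers alone. Hamp was at 302, 208, 478 and 567 CPM in WT livers 1 to 4 and at 222, 226, 381 and 359 CPM in N-LKO livers 1 to 4. The groups overlapped, and the 2 highest libraries were WT. The log2 fold change of N-LKO over WT was -0.39 (SE 0.28), which did not pass the test (edgeR quasi-likelihood, adjusted p = 0.440).

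Hamp2 was the 1 gene of the 10 that passed the threshold in the N-LKO livers on HFD, as higher. It was at 2.81, 0.287, 1.45 and 2.04 CPM in WT livers and at 9.36, 14.7, 7.73 and 2.72 CPM in N-LKO livers. N-LKO replicates 1 to 3 lay above every WT liver, and N-LKO replicate 4 lay just under WT replicate 1. The mean was 1.65 ± 1.06 CPM (SD, n = 4) in WT and 8.62 ± 4.92 CPM (SD, n = 4) in N-LKO livers, a log2 fold change of 2.40 (SE 0.54, edgeR adjusted p = 0.0300). The counts behind it were 3 to 27 in WT and 34 to 178 in N-LKO libraries. The call was lost when any of WT replicates 2, 3 and 4 or N-LKO replicates 1, 2 and 3 was left out (adjusted p = 0.0562 to 0.0783, log2 fold change 2.00 to 2.52), in limma-voom (0.0889) and with an offset for gene length and GC content (0.0554).

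As a share of the counts of Hamp and Hamp2 together, Hamp2 took 0.922%, 0.137%, 0.301% and 0.358% in the WT livers on HFD. In the N-LKO livers it took 4.05%, 6.09%, 1.99% and 0.753%. N-LKO replicate 4 again fell inside the WT range, and Hamp held the larger part by far in each of the 8 livers.

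Bmp2 (chr2:133552159-133562885, plus strand), a ligand, was at 10.6, 14.9, 13.8 and 13.9 CPM in WT and at 8.20, 8.65, 10.8 and 10.2 CPM in N-LKO livers on HFD. Only WT replicate 1 reached into the N-LKO range. The log2 fold change was -0.50 (SE 0.14, adjusted p = 0.0648), and it passed in DESeq2 (adjusted p = 0.0487) and without WT replicate 1 (0.0325). Beside it, the 10 markers of sinusoidal endothelium summed to 198 ± 15.4 CPM in WT livers (SD, n = 4). In N-LKO livers the sum was between 127 and 194 CPM, with 2 of the 10 lower past the threshold. Their part in the Bmp2 value was not tested. In bulk RNA, fewer cells of a type and less RNA per cell cannot be told apart.

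Bmp6 (chr13:38345107-38500302, plus strand), the other ligand, was at 2.71, 1.63, 2.89 and 3.06 CPM in WT and at 1.57, 2.06, 3.59 and 2.64 CPM in N-LKO livers. The groups overlapped throughout, with a log2 fold change of -0.07 (SE 0.30, adjusted p = 0.915).

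Of the SMADs that carry the signal, Smad1 (chr8:79338395-79399518, minus strand) was at 11.6, 10.5, 12.7 and 10.4 CPM in WT and at 11.8, 8.82, 12.1 and 13.9 CPM in N-LKO livers on HFD (log2 fold change 0.05, SE 0.15, adjusted p = 0.877). Smad9 (chr3:54755582-54801257, plus strand) was at 11, 6.02, 11.6 and 14.0 CPM in WT and at 8.37, 8.65, 8.05 and 8.40 CPM in N-LKO livers. The N-LKO values were nearly equal, and they lay inside the WT range because WT replicate 2 was lower than all of them. This comparison uses no library on which Smad9 was noticed, and its log2 fold change of -0.34 (SE 0.21) did not pass (adjusted p = 0.355).

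The inhibitory Smad7, on chromosome 18, was at 6.04, 6.02, 7.12 and 6.62 CPM in WT and at 4.39, 5.69, 3.81 and 5.28 CPM in N-LKO livers on HFD. It was the only one of the 10 genes whose groups did not overlap, where 14.8% of the 13460 genes tested did not overlap either. Its log2 fold change was -0.42 (SE 0.17, adjusted p = 0.158). Smad6 (chr9:63953076-64022059, minus strand) was at 3.44, 3.63, 2.45 and 3.46 CPM in WT and at 2.49, 2.55, 2.50 and 3.84 CPM in N-LKO livers, with 1 library of each group far from the rest (log2 fold change -0.19, SE 0.23, adjusted p = 0.672).

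Id1 (chr2:152736251-152737410, plus strand) and Id3 (chr4:136143497-136145755, plus strand) encode inhibitors of basic helix-loop-helix transcription factors and are standard readouts of BMP signaling. Id1 was at 4.79, 5.83, 7.56 and 5.60 CPM in WT and at 6.30, 6.10, 4.90 and 3.04 CPM in N-LKO livers on HFD, so the groups overlapped (log2 fold change -0.22, SE 0.23, adjusted p = 0.612). Id3 was at 17.4, 12.5, 23.5 and 24.4 CPM in WT and at 17.3, 10.4, 10.7 and 12 CPM in N-LKO livers. N-LKO replicates 2 to 4 lay below every WT liver, and the log2 fold change of -0.62 (SE 0.22) did not pass (adjusted p = 0.118).

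In this comparison 1 of the 10 genes passed the threshold, beside 4.84% of all genes tested. The median log2 fold change of the 10 genes was -0.28, beside -0.01 over all genes, and 8 of the 10 were below 0.

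**Figure D1:**
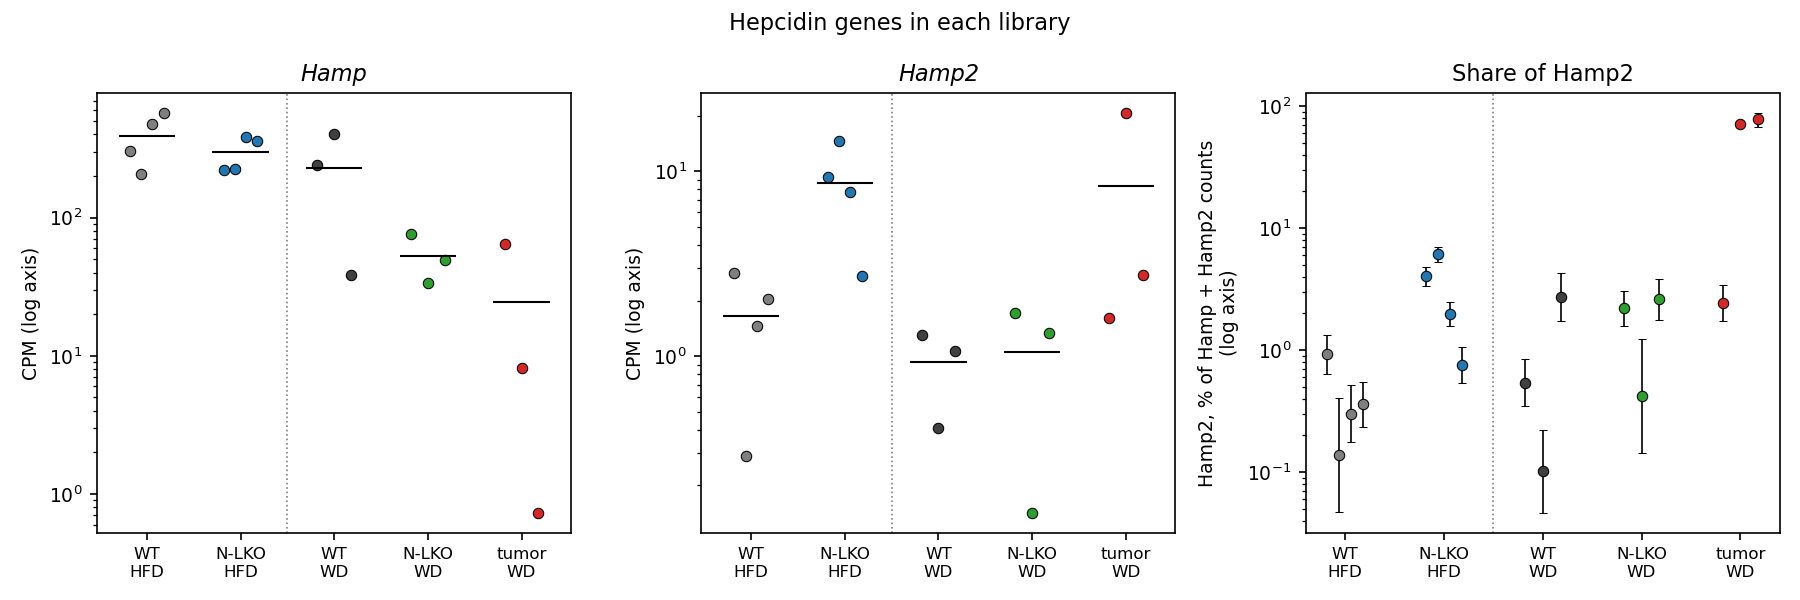
CPM of Hamp and Hamp2 (log axes) and the share of Hamp2 in the counts of both genes (percent, log axis) in each of the 17 libraries; points are libraries, horizontal lines in the CPM panels are group means, bars in the share panel are 95% Wilson intervals (counting error only), and the dotted line separates the tables. Hamp ran from 402 CPM in a WT liver to 0.730 CPM in tumor 3 on WD, and Hamp2 held 71.6% and 79.1% of the hepcidin counts in tumors 2 and 3.

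Among WD livers, which are described without a test, Smad9 had the clearest separation of the genotypes. It was at 22.3, 30.9 and 23.3 CPM in WT and at 9.89, 9.49 and 7.82 CPM in N-LKO livers. The highest N-LKO liver lay far below the lowest WT liver, and the log2 fold change was -1.49 (SE 0.21). The tumors, at 8.09, 7.34 and 11.7 CPM, overlapped with the N-LKO livers, so the mean of 9.04 ± 2.32 CPM in tumors (SD, n = 3) lay beside 9.07 ± 1.10 CPM in N-LKO livers (SD, n = 3). Log2 fold changes of tumors were -0.01 (SE 0.21) over N-LKO livers and -1.50 (SE 0.21) over WT livers.

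Hamp in the WT livers on WD was uneven, at 239, 402 and 38.2 CPM. The N-LKO livers were at 76.3, 33.4 and 49.4 CPM. WT replicate 3 lay among the N-LKO livers, so the groups overlapped in spite of means of 227 ± 182 CPM and 53.0 ± 21.7 CPM (SD, n = 3 each). The log2 fold change was -2.09 (SE 1.15). Id1 followed the same layout, at 12.1, 13.5 and 5.13 CPM in WT and at 5.73, 6.98 and 6.70 CPM in N-LKO livers, with WT replicate 3 again the lowest (log2 fold change -0.66, SE 0.31). Without WT replicate 3 that value was -0.99.

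For the other genes the genotypes were close on WD. Hamp2 was at 1.30, 0.407 and 1.07 CPM in WT and at 1.71, 0.142 and 1.33 CPM in N-LKO livers (log2 fold change 0.18, SE 1.09), on 3 to 35 counts per library. Bmp2 was at 16.5, 22.3 and 16.6 CPM in WT and at 16.5, 20.1 and 18 CPM in N-LKO livers. Bmp6 lay between 3.46 and 3.91 CPM in all 6 livers, and Smad1 between 18.7 and 23.0 CPM.

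Smad6 was at 5.19 to 6.38 CPM in WT and at 5.42 to 6.36 CPM in N-LKO livers on WD. Smad7 was at 23.9, 23.6 and 14.1 CPM in WT and at 17.9, 17.1 and 21.1 CPM in N-LKO livers. Id3 was at 32.9, 53.4 and 21.4 CPM in WT and at 22.7, 46.5 and 36.2 CPM in N-LKO livers. Each of these pairs of groups overlapped. The log2 fold changes of Bmp2, Bmp6, Smad1, Smad6, Smad7 and Id3 all lay between -0.14 and 0.01.

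None of the 10 genes passed in this comparison by edgeR, as none of the 17829 genes tested did (0.00%), while 2212 genes had an unadjusted p under 0.05. DESeq2 called 1 of the 10, Smad9, and 100 genes in all, and limma-voom called 0 genes. Smad9 was the 1 gene of the 10 without overlap, beside 27.9% of all genes. Nothing is read from these counts, since the comparison chose the genes. The hepatocyte markers summed to 48200 to 60300 CPM in WT and to 34300 to 43100 CPM in N-LKO livers, and those of Kupffer cells to 671 to 730 and 507 to 533 CPM. Their part in the Smad9 and Hamp values was not tested.

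The tumors were then compared with both groups of WD livers. The 2 comparisons share the tumor libraries, and each shares liver libraries with the comparison that chose Smad9. The levels of Bmp2, Smad7, Id1 and Id3 fell in tumors against WT livers, with log2 fold changes from -0.87 to -1.21, and none of the 10 genes passed in tumors against N-LKO livers. Without tumor 1, Hamp2, Bmp2, Smad6 and Smad7 passed against N-LKO livers, each in this 1 of the 9 fits that left out a library. How many of all genes passed in that fit is not given here.

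Hamp was at 64.1, 8.18 and 0.730 CPM in tumors 1 to 3, on 1275, 184 and 14 counts. Tumors 2 and 3 lay below all 6 livers, and tumor 1 lay inside the range of the N-LKO livers and above WT replicate 3. Its log2 fold change was -1.12 (SE 1.13, adjusted p = 0.637) over N-LKO livers and -3.22 (SE 1.20, adjusted p = 0.0956) over WT livers. Without tumor 1, the values were -3.55 (adjusted p = 0.0654) over N-LKO livers and -5.65 (adjusted p = 0.0121) over WT livers. Leaving out tumor 3 brought the value over N-LKO livers to -0.56.

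Hamp2 was at 1.61, 20.6 and 2.76 CPM in tumors, on 32, 463 and 53 counts. Every tumor lay above every WT liver, but tumor 1 lay below N-LKO replicate 1. Over N-LKO livers the log2 fold change was 2.98 (SE 0.99, adjusted p = 0.162) and over WT livers 3.16 (SE 1.02, adjusted p = 0.0631). Without tumor 1 both passed, at 3.46 (adjusted p = 0.0356) and 3.64 (adjusted p = 0.0226), and without tumor 2 they were 1.04 and 1.19.

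The balance of the hepcidin genes was turned over in 2 of the 3 tumors. Hamp2 took 2.45% of the counts of both genes in tumor 1 (95% Wilson interval 1.74% to 3.44%), 71.6% in tumor 2 (68.0% to 74.9%) and 79.1% in tumor 3 (67.9% to 87.1%). In the WD livers it took 0.542%, 0.101% and 2.74% in WT and 2.20%, 0.424% and 2.62% in N-LKO. Tumor 1 lay inside the range of the livers. The intervals cover counting error only. In tumor 2 the counts were 463 for Hamp2 and 184 for Hamp, whereas in tumor 3 both genes together had 67 counts, 14 of them for Hamp.

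Bmp2 was at 13.1, 6.23 and 5.58 CPM in tumors, below all 6 livers, the lowest of which was at 16.5 CPM. Tumor 1 was the nearest to the livers. The log2 fold change was -1.13 (SE 0.29, adjusted p = 0.102) over N-LKO livers and -1.15 (SE 0.30, adjusted p = 0.0306) over WT livers. Without tumor 1 the value over N-LKO livers was -1.62 and passed (adjusted p = 0.00149). The markers of sinusoidal endothelium, the source of BMP2 in liver, summed to 439 to 472 CPM in tumors, 418 to 476 CPM in N-LKO and 434 to 485 CPM in WT livers, so that the tumor range lay inside those of both liver groups. Against WT livers, 2 of these 10 markers passed as higher and 1 as lower in tumors.

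Bmp6 was at 2.26, 4.98 and 8.76 CPM in tumors. Tumor 1 was below and tumors 2 and 3 were above every liver. The log2 fold change was 0.53 (SE 0.38, adjusted p = 0.498) over N-LKO livers and 0.51 (SE 0.39, adjusted p = 0.395) over WT livers, and without tumor 3 the values were -0.03 and -0.05. Without tumor 1 the value over WT livers was 0.87 and passed (adjusted p = 0.0402).

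Smad1 was at 20.4, 18.8 and 17.3 CPM in tumors, beside 18.7 to 19.9 CPM in N-LKO and 19.3 to 23.0 CPM in WT livers. Log2 fold changes were -0.03 (SE 0.13, adjusted p = 0.928) over N-LKO livers and -0.17 (SE 0.13, adjusted p = 0.388) over WT livers.

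The inhibitory SMADs were lower in tumors than in every WD liver. Smad7 was at 13.3, 8.98 and 11.3 CPM, with a log2 fold change of -0.74 (SE 0.22, adjusted p = 0.133) over N-LKO and -0.87 (SE 0.22, adjusted p = 0.0306) over WT livers. Without tumor 1 the value over N-LKO livers was -0.89 and passed (adjusted p = 0.0445). Smad6 was at 4.47, 2.00 and 3.02 CPM, where the lowest liver was at 5.19 CPM. Its log2 fold change was -0.92 (SE 0.27, adjusted p = 0.130) over N-LKO and -0.91 (SE 0.27, adjusted p = 0.0504) over WT livers, just over the threshold, and without tumor 1 it passed over WT livers (-1.25, adjusted p = 0.00828) and over N-LKO livers (-1.25, adjusted p = 0.0121).

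Both Id genes were also lower in every tumor than in every WD liver. Id1 was at 4.07, 4.05 and 5.11 CPM in tumors, with the highest tumor next to WT replicate 3 at 5.13 CPM. Its log2 fold change was -0.55 (SE 0.31, adjusted p = 0.379) over N-LKO and -1.21 (SE 0.32, adjusted p = 0.0319) over WT livers. Id3 was at 19.2, 13.7 and 13.9 CPM in tumors, with the nearest liver at 21.4 CPM. Its log2 fold change was -1.17 (SE 0.34, adjusted p = 0.125) over N-LKO and -1.20 (SE 0.34, adjusted p = 0.0418) over WT livers.

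**Figure D2:**
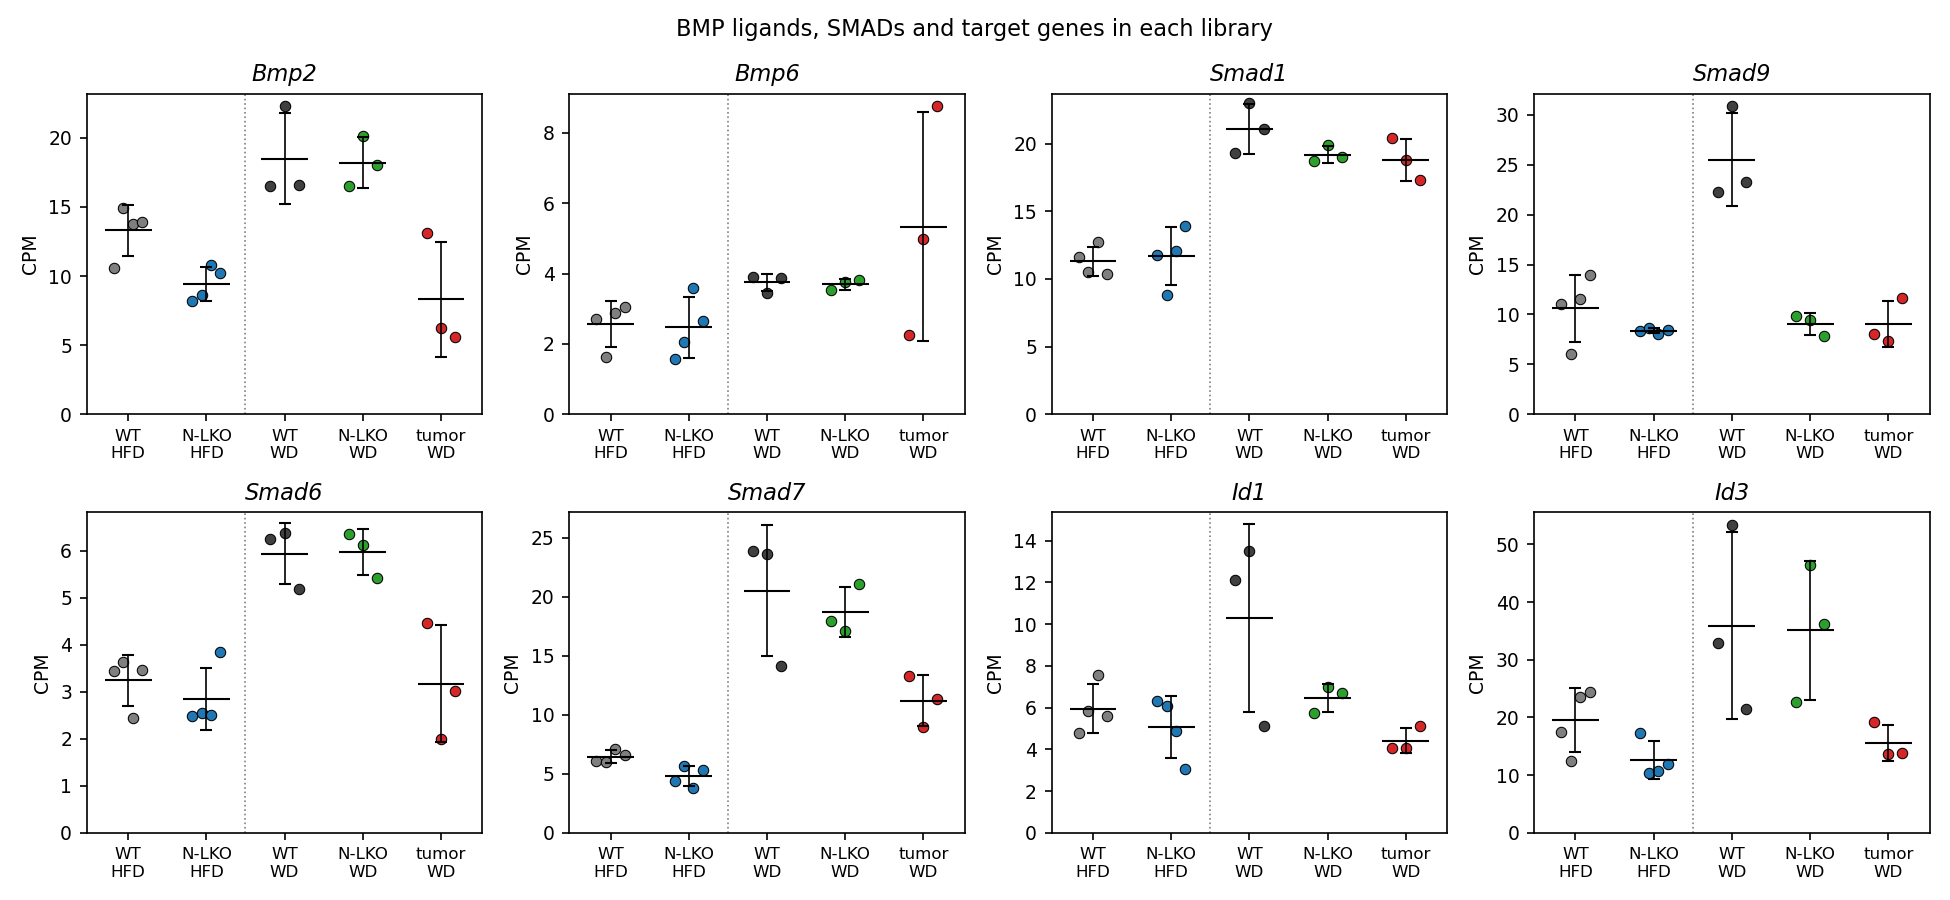
CPM of the ligands Bmp2 and Bmp6, the SMADs and the Id genes in each library (linear axes from 0); points are libraries, horizontal lines are group means and bars are ± 1 SD, and the dotted line separates the tables. In the WD panels Bmp2, Smad6, Smad7, Id1 and Id3 were lower in each of the 3 tumors than in each of the 6 livers. Of all genes tested, 23.1% did not overlap between tumors and N-LKO livers and 34.1% between tumors and WT livers. The share lower than both liver groups at once is not given here. Smad9 lay between 7.34 and 11.7 CPM in N-LKO livers and tumors.

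Smad9 is left out of the counts that follow, since it was picked on these livers. Against WT livers 4 of the other 9 genes passed, all as lower in tumors (Bmp2, Smad7, Id1 and Id3), beside 14.9% of the 17829 genes tested in either direction and 6.80% as lower. DESeq2 called 6 of the 9, beside 3646 of all 17829 genes, and limma-voom 3, beside 2391 genes in all. The groups did not overlap for 6 of the 9, beside 34.1% of all genes. The median log2 fold change of the 9 genes was -0.91, beside 0.04 over all genes. In tumors against N-LKO livers 0 of 9 passed by edgeR, beside 0.499% of all genes. An unadjusted p under 0.05 was found for 5 of the 9, beside 3256 of all 17829 genes. DESeq2 called 3 (Bmp2, Smad6 and Id3), beside 1021 genes in all, and limma-voom 0, beside 18. The groups did not overlap for 5 of the 9, beside 23.1% of all genes, and the median was -0.74, beside 0.02. The share of all genes lower in every tumor than in every WD liver is not given here.

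The calls against WT livers depended on single libraries and on the fit. Bmp2 no longer passed without WT replicate 1, 2 or 3, N-LKO replicate 3, or tumor 2 or 3 (adjusted p = 0.0527 to 0.107), Smad7 without WT replicate 1 or 2 or tumor 2 or 3 (0.0589 to 0.107), Id1 without WT replicate 1 or 2, N-LKO replicate 3, or tumor 1 or 2 (0.0528 to 0.118), and Id3 without WT replicate 1 or 2, N-LKO replicate 3, or tumor 2 or 3 (0.0665 to 0.156). Every one of these 4 genes also missed the threshold when the N-LKO livers were left out of the fit (0.0652 to 0.0789). In limma-voom Id1 (0.0644) and Id3 (0.0630) did not pass, nor did Id3 with the length and GC offset (0.0512). The log2 fold changes of the 4 genes stayed below 0 in each of these fits.

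**Figure D3:**
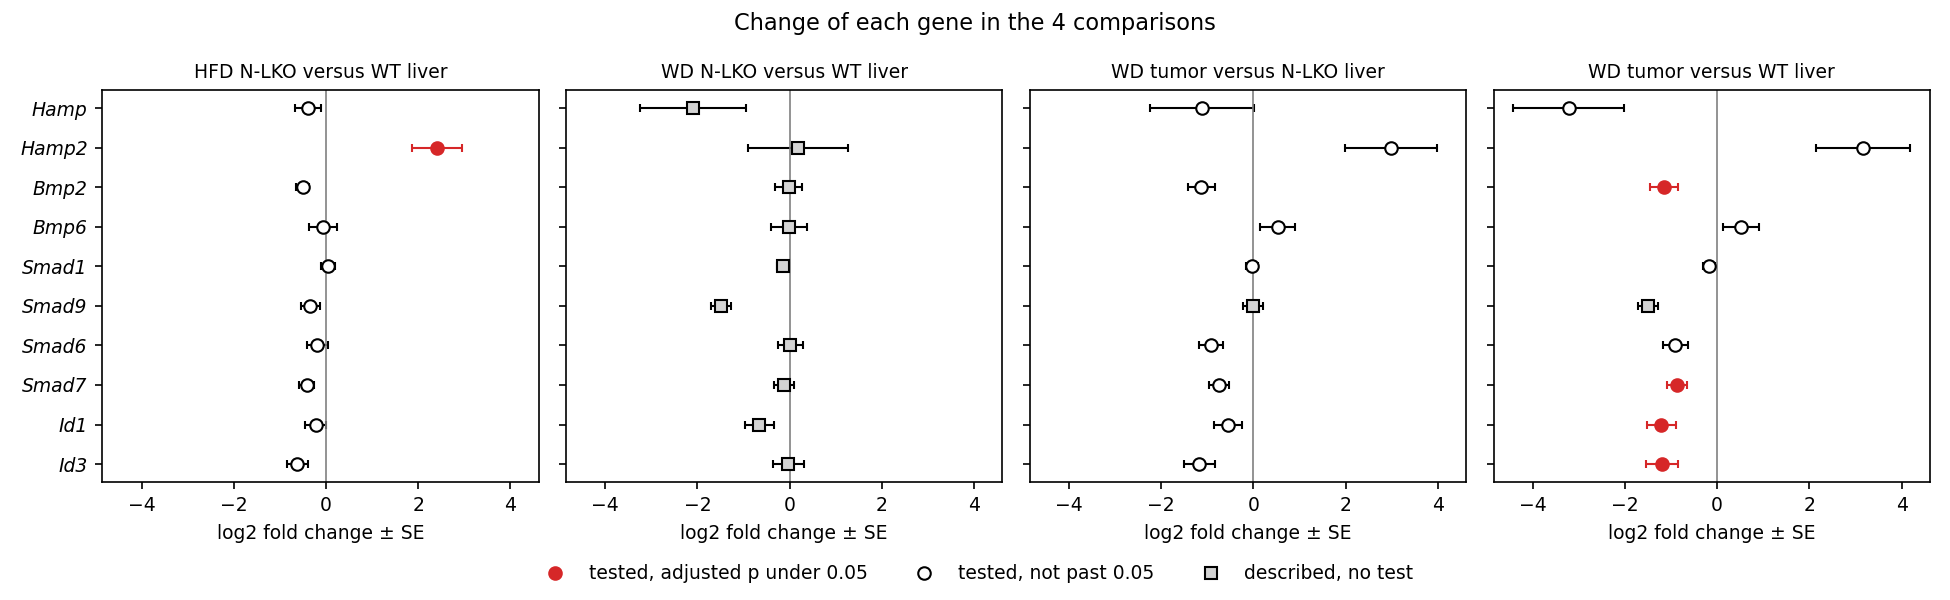
Log2 fold change ± SE of each of the 10 genes in the 4 comparisons (horizontal axis, edgeR); red points passed an adjusted p of 0.05, white points did not, and grey squares are described without a test because their comparison chose the genes. Hamp2 at 2.40 under HFD and Bmp2, Smad7, Id1 and Id3 between -0.87 and -1.21 in tumors over WT livers are the red points.

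Marker genes of other liver cells moved beside these values. The 8 Kupffer cell markers summed to 189 to 413 CPM in tumors, below 507 to 533 CPM in N-LKO and 671 to 730 CPM in WT livers, and 5 of the 8 passed as lower against WT livers. The 8 cholangiocyte markers summed to 220 to 546 CPM in tumors, above 151 ± 18.4 CPM in N-LKO (SD, n = 3) and 28.6 to 83.4 CPM in WT livers, with 3 passing as higher against WT livers. Hepatocyte markers summed to 37300 to 64000 CPM in tumors, and 3 of the 8 passed as lower against WT livers. Stellate cell and fibroblast markers summed to 593 to 992 CPM in tumors, beside 874 to 1020 CPM in N-LKO and 516 to 927 CPM in WT livers, and lymphocyte markers to 56.9 to 112 CPM, beside 70.7 to 79.7 and 27.7 to 55.6 CPM. Under HFD, Kupffer cell markers summed to 263 to 383 CPM in WT and to 127 to 260 CPM in N-LKO livers, with 6 of 8 passing as lower. Cholangiocyte markers there summed to 33.3 to 49.1 CPM in WT and 69.6 to 118 CPM in N-LKO livers. Of these, 1 of 3 tested passed as higher. In the same order, stellate cell and fibroblast sums were 191 to 316 and 249 to 337 CPM, and lymphocyte sums 10.5 to 16.2 and 11.3 to 12.8 CPM. Hepatocyte sums were 68500 to 80300 and 61900 to 80100 CPM. The part of these cells in the values of the 10 genes was not tested.

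**Figure D4:**
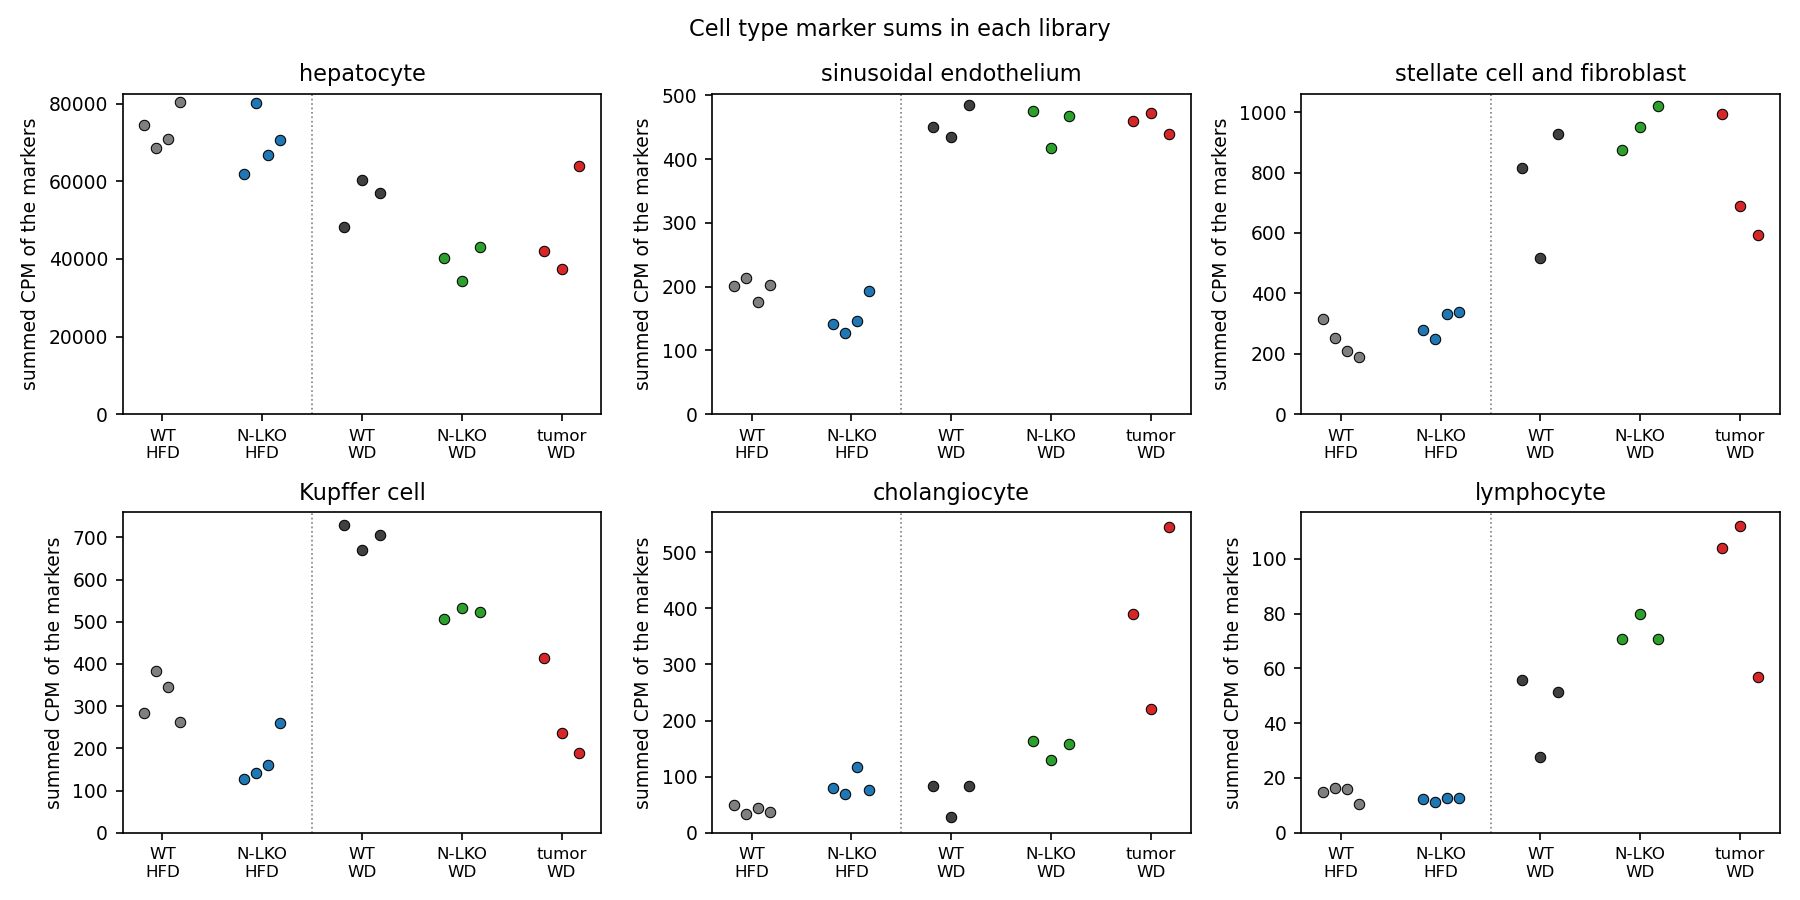
Summed CPM of the markers of 6 cell types in each library (linear axes from 0, points are libraries, the dotted line separates the tables). Kupffer cell sums were 189 to 413 CPM in tumors and 507 to 730 CPM in WD livers, cholangiocyte sums were 220 to 546 CPM in tumors, above every WD liver, and the sinusoidal endothelium sums of tumors, 439 to 472 CPM, lay inside the range of the WD livers.

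The rest of the pathway was taken from 7 lists that hold 78 genes, of which 60 were tested under HFD and 68 under WD. Under HFD, 3 of the 60 passed (Acvr2a, Smurf2 and Fth1), a share close to the 4.84% of all genes tested, with a median log2 fold change of -0.10 over the 60. Acvr2a, a receptor of activins and BMPs, fell from 23.7 ± 2.50 to 17.3 ± 1.47 CPM (SD, n = 4 each, log2 fold change -0.46, SE 0.11, adjusted p = 0.0349). Smurf2, a ubiquitin ligase that acts on SMADs and their receptors, fell from 46.1 ± 3.86 to 33.5 ± 1.38 CPM (log2 fold change -0.46, SE 0.09, adjusted p = 0.0167). Fth1, the ferritin heavy chain that stores iron, rose from 1130 ± 30.2 to 1450 ± 94.1 CPM (log2 fold change 0.36, SE 0.09, adjusted p = 0.0362). The groups of each of these 3 genes did not overlap. Of the 60 genes, 2 lay higher and 6 lower without overlap, beside 14.8% of all genes tested in either direction. The Smurf2 call was lost without N-LKO replicate 1 (adjusted p = 0.0559), that of Acvr2a without any 1 library other than WT replicate 1 (0.0588 to 0.101), and that of Fth1 without any 1 library other than N-LKO replicate 3 (0.0510 to 0.0981). With the length and GC offset the adjusted p of Acvr2a was 0.0997 and that of Fth1 was 0.0685.

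In tumors against N-LKO livers 0 of the 68 list genes passed by edgeR and 0 by limma-voom. DESeq2 called 8, beside 1021 of all 17829 genes, and 20 had an unadjusted p under 0.05, beside 3256 of all genes. Against WT livers 15 of the 68 passed (beside 14.9% of all genes), 4 as higher (beside 8.08%) and 11 as lower (beside 6.80%). The counts of the single lists below stand beside the same shares. Their counts of an unadjusted p under 0.05 stand beside 5803 of all 17829 genes. The median log2 fold change of the 68 was -0.17.

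Of 7 other BMP ligands tested, 3 fell and 1 rose in tumors against WT livers. Gdf2, which encodes BMP9, a ligand made by stellate cells that acts on endothelium, was at 29.8, 28.8 and 32.6 CPM in WT livers. The N-LKO livers were at 22.7, 26.8 and 22.5 CPM and the tumors at 15.9, 6.14 and 7.46 CPM. The 3 groups did not overlap, and the log2 fold change of tumors over WT livers was -1.63 (SE 0.30, adjusted p = 0.0121). Bmp10, a close relative that binds the same receptor, was at 6.04, 4.95 and 7.22 CPM in WT livers. It was at 3.38, 5.41 and 4.63 CPM in livers of the N-LKO and at 2.87, 0.356 and 0.365 CPM in tumors (log2 fold change over WT livers -2.35, SE 0.64, adjusted p = 0.0371). Without tumor 1 that value was -4.05.

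Bmp7 fell from 2.54 ± 1.37 CPM in WT livers to 0.399 ± 0.397 CPM in tumors (log2 fold change -2.66, SE 0.68, adjusted p = 0.0306), and the value was -3.85 without tumor 1. Bmp8b rose, from 0.755, 0.0678 and 0.596 CPM in WT livers to 6.18, 0.623 and 26.9 CPM in tumors (log2 fold change 4.54, SE 1.15, adjusted p = 0.0289). Tumor 2 lay inside the WT range of Bmp8b, and limma-voom gave an adjusted p of 0.270. Without tumor 3 the log2 fold change of Bmp8b was 2.81 (adjusted p = 0.0691).

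None of the 11 receptors and coreceptors tested passed in tumors against WT livers by edgeR, DESeq2 or limma-voom, and 2 had an unadjusted p under 0.05. The most abundant were Bmpr2, the type 2 BMP receptor, at 157 ± 21.8 CPM in tumors and 151 ± 6.02 CPM in WT livers, then Hjv, the coreceptor hemojuvelin, and Bmpr1a, a type 1 BMP receptor, which were close to each other in WT livers (62.9 ± 4.54 and 63.9 ± 0.754 CPM). Hjv was at 39.2, 65.7 and 117 CPM in tumors and at 59.6 to 68.1 CPM in WT livers, with 1 tumor below and 1 above. Of the 4 other SMADs none passed by the same 3 tools, and 1 had an unadjusted p under 0.05. Smad5, a partner of SMAD1 and SMAD9, was at 50.3, 41.5 and 39.6 CPM in tumors, below 53.1 to 55.3 CPM in WT livers. Smad4, the common partner, was at 48.0 ± 3.25 CPM in tumors and 44.6 ± 5.10 CPM in WT livers. Of the 12 extracellular and intracellular inhibitors tested, 0 passed in tumors against WT livers by these tools, and 1 had an unadjusted p under 0.05.

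Of 4 other BMP target genes tested, Atoh8, a transcription factor that raises Hamp, fell. It was at 19.1, 25.2 and 12.8 CPM in WT livers, 12.4, 15.1 and 13.9 CPM in N-LKO and 8.14, 2.00 and 3.55 CPM in tumor libraries, and every tumor lay below every liver (log2 fold change over WT livers -2.06, SE 0.43, adjusted p = 0.0168, and -2.79 without tumor 1). Id2 was the most abundant of the list, at 82.0 ± 11.5 CPM in tumors and 115 ± 43.9 CPM in WT livers.

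Among 14 regulators of hepcidin tested, 4 fell in tumors against WT livers. Hfe, which signals the iron load to the hepatocyte, was at 49.8, 58.7 and 45.2 CPM in the WT, 48.1, 41.4 and 45.2 CPM in the N-LKO and 34.5, 26.8 and 29.2 CPM in the tumor libraries, so that each tumor lay below every liver (log2 fold change over WT livers -0.76, SE 0.14, adjusted p = 0.0131). Tfr2, the transferrin receptor that works with HFE, was at 225, 448 and 245 CPM in WT livers and at 148 ± 36.7 CPM in tumors (SD, n = 3, log2 fold change -1.05, SE 0.27, adjusted p = 0.0311). WT replicate 2 was far above the other WT livers, and without it the value was -0.67 (adjusted p = 0.0914). Il6st, the signaling subunit of the interleukin-6 receptor, fell from 406 ± 55.6 to 244 ± 66.8 CPM (log2 fold change -0.74, SE 0.20, adjusted p = 0.0361), and Creb3l3, a liver transcription factor activated by endoplasmic reticulum stress, from 297 ± 56.8 to 199 ± 26.5 CPM (log2 fold change -0.57, SE 0.17, adjusted p = 0.0493). Trf, which encodes transferrin, was the most abundant gene of the list, at 11000 ± 2490 CPM in tumors and 12700 ± 665 CPM in WT livers.

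Of 16 genes of iron handling, 3 rose and 3 fell in tumors against WT livers. Steap3, a ferrireductase, rose from 22.8 ± 2.91 to 47.1 ± 14.0 CPM (log2 fold change 1.05, SE 0.22, adjusted p = 0.0177). Cp, ceruloplasmin, a ferroxidase that loads iron onto transferrin, rose from 1540 ± 75.2 to 3000 ± 790 CPM (log2 fold change 0.96, SE 0.22, adjusted p = 0.0220). Lcn2, a siderophore-binding protein of the acute phase, rose from 98.2 ± 72.5 to 370 ± 120 CPM (log2 fold change 1.91, SE 0.50, adjusted p = 0.0327, and 2.70 without WT replicate 2). Of the genes that fell, Ftl1, the ferritin light chain, went from 2060 ± 214 to 1270 ± 134 CPM (log2 fold change -0.70, adjusted p = 0.0237). Hmox1, the heme oxygenase that frees iron from heme and is abundant in Kupffer cells, went from 44.7 ± 10.3 to 23.6 ± 5.86 CPM (log2 fold change -0.92, adjusted p = 0.0401), beside the lower Kupffer cell markers above. Ireb2, an iron sensor that binds messenger RNA, went from 179 ± 33.2 to 111 ± 22.1 CPM (log2 fold change -0.69, adjusted p = 0.0344). Slc40a1, ferroportin, the target of hepcidin, had group means of 227 ± 24.6 CPM in tumors and 251 ± 27.0 CPM in WT livers and did not pass.

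When 1 of the 9 WD libraries was left out at a time, Gdf2 and Hfe passed in all 9 fits against WT livers, Atoh8 in 8, Ftl1 in 7, Tfr2, Cp and Steap3 in 6 each, Bmp7 and Bmp8b in 5 each, Lcn2 in 4, Hmox1 and Ireb2 in 3 each, and Bmp10, Il6st and Creb3l3 in 1 each. Of the 10 genes and the lists together, 20 passed with all libraries (19 without Smad9), 6, 4 and 11 without WT replicate 1, 2 or 3, 16, 15 and 10 without N-LKO replicate 1, 2 or 3, and 31, 9 and 12 without tumor 1, 2 or 3. The shares of all genes that passed in these smaller fits are not given here.

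**Figure D5:**
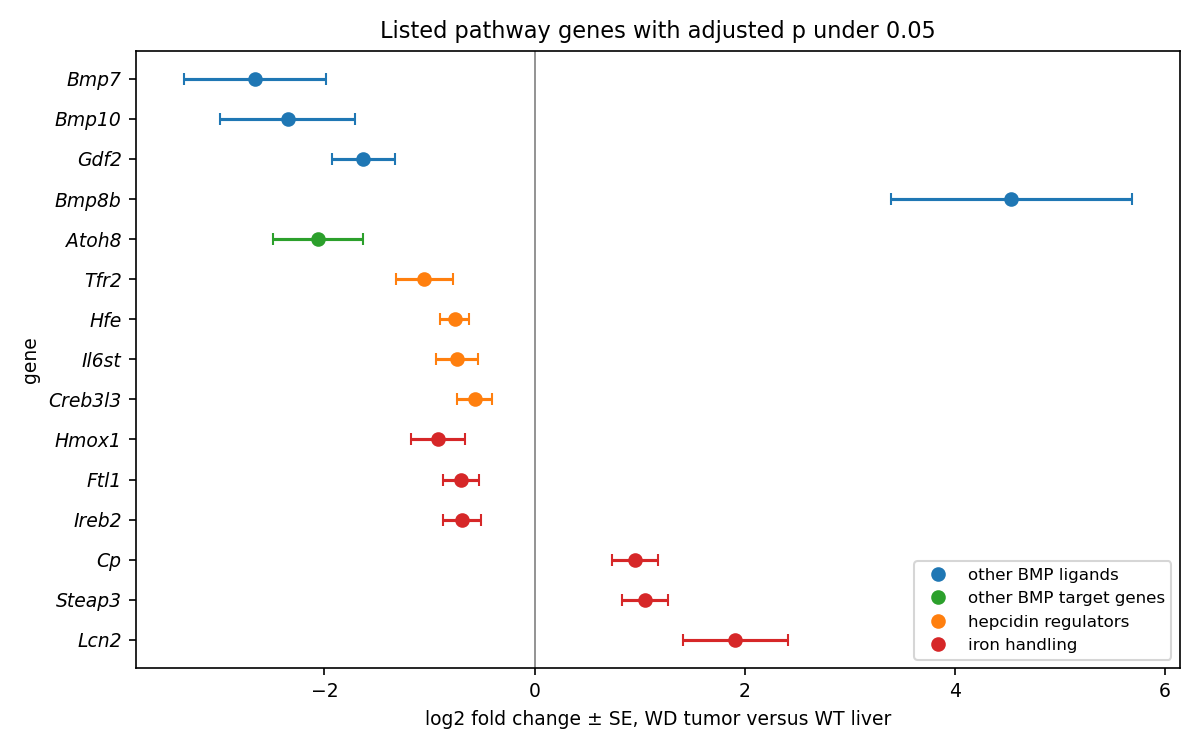
Log2 fold change ± SE in WD tumors over WT livers (horizontal axis, edgeR) of the 15 listed pathway genes with an adjusted p under 0.05, coloured by list. The 11 genes left of 0 run from Bmp7 at -2.66 to Creb3l3 at -0.57, and the 4 right of it are Cp at 0.96, Steap3 at 1.05, Lcn2 at 1.91 and Bmp8b at 4.54.

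For Hamp, Id1 and Smad9, the genes with the most similar pattern were sought among 10986 genes by the Pearson correlation of log2 CPM, taken over the 8 HFD libraries and the 9 WD libraries apart and ranked by the smaller of the 2 values. The libraries share genotype groups and depth, so these values describe likeness alone. Nearest to Hamp were Mdc1 (0.825 under HFD and 0.861 under WD), Ttpa (0.818 and 0.849), which encodes the vitamin E transfer protein of hepatocytes, and Parp6 (0.814 and 0.802). Nearest to Id1 were Esrp2 (0.836 and 0.827), an epithelial splicing regulator, Letmd1 (0.903 and 0.824) and Gpr137 (0.817 and 0.825). Nearest to Smad9 were B4galt1 (0.838 and 0.855), a galactosyltransferase, Ulk3 (0.887 and 0.838) and Zfp703 (0.830 and 0.828). B4galt1 was at 79.4 ± 12.4 CPM in WT, 59.8 ± 2.88 CPM in N-LKO and 64.4 ± 9.93 CPM in tumor libraries on WD, and Esrp2 at 71.9 ± 18.6, 53.4 ± 3.84 and 39.9 ± 7.47 CPM.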

How the data were processed

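RNA-seq of 17 mouse samples was used: WT and N-LKO livers on HFD (n = 4 each), and WT livers, N-LKO livers and tumors on WD (n = 3 each), grouped by the sample titles. The authors deposited estimated counts for each gene, which Partek derived by expectation-maximization from single-end, Ribo-Zero-depleted libraries, unscaled and not pooled. The submitters' processing notes name STAR and mm9, the methods name TopHat2 (versions not given in the sources used here), and the listed coordinates matched GRCm38, so that build is used. Strand use is not stated. All columns of per-sample values were assigned to a sample.

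Rounded counts entered edgeR 4.0.16 (R 4.3.3), with TMM scaling, filterByExpr and the quasi-likelihood F test (Benjamini-Hochberg over all genes, threshold 0.05), with 13460 genes in the HFD fit and 17829 in the fit of the 3 WD groups. The study's own test needs aligned reads and was not run. SEs of log2 fold changes are approximate and were derived from F. The common biological coefficient of variation was 0.149 and 0.243. All 10 genes passed the filter in both tables. The effects under HFD and WD were not tested against each other, because that contrast contains the one that chose the genes. No pair of libraries within a group was closer than sampling noise (chi-square of 8 or more per degree of freedom over 21 pairs).

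The 10 genes and the lists were chosen with earlier results of these data known. Named besides them, by a fixed rule, were list genes that passed and averaged 1 CPM or more, the most abundant list genes, and the 3 most alike genes of Hamp, Id1 and Smad9 (log2 of CPM + 0.5). Slc40a1 and Bmpr1a were named with their values seen. Alternatives were DESeq2 1.42.0 (size factors and Wald test), limma-voom 3.58.1, upper-quartile scaling, filters (none, or a mean of 1 CPM), a replicate block, a length and GC offset, only the groups compared, and leaving out each library. Scripts were tested on simulated data.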

Additional observations from a re-analysis of the deposited data

Results flagged for a closer look

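Of 56 groups of 4 HFD libraries examined for one library far from the rest, 5 held one by Dixon's test at the 95% level, where chance gives about 1 in 20. Smad6 was lowest in WT replicate 3, at 2.45 CPM beside 3.44 to 3.63 CPM in the other WT livers, and highest in N-LKO replicate 4, at 3.84 CPM beside 2.49 to 2.55 CPM in the other N-LKO livers. Bmp8b was at 0.0956 CPM in WT replicate 2, on 1 count, and at 0 in the other WT livers, so this flag rests on that count alone. Smurf2 was lowest in N-LKO replicate 1, at 31.5 CPM beside 34.1 to 34.4 CPM. Ftl1 was highest in WT replicate 2, at 1260 CPM beside 1080 to 1110 CPM in the other WT livers. Groups of 3 WD libraries were not examined.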

How the results depend on the processing

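Of the 10 genes and the lists together, 4 passed under HFD. The number was 11 by the DESeq2 Wald test (beside 1000 of all 13460 genes), 1 with a replicate block, 1 with the length and GC offset, 0 with both, and 0 to 6 when 1 library was left out. In tumors over N-LKO livers 0 passed, 11 by the DESeq2 Wald test (beside 1021 of all 17829 genes), and 0 to 17 when 1 library was left out (17 without tumor 1). Shares of all genes in the fits without 1 library are not given here. In tumors over WT livers 20 passed (Smad9 counted), 10 with a replicate block, 12 with the offset and the block, 3 when only the 2 groups were fitted, and 4 to 31 when 1 library was left out. In N-LKO over WT livers on WD 0 passed, 1 by the DESeq2 Wald test, 1 when only the 2 groups were fitted, and 0 in every fit that left out 1 library. Other scalings and filters kept each count within 1.5 times. Same-numbered libraries did not vary together, and not every library was nearest to its own number. Correlations of their deviations from the group means were between -0.109 and 0.109, so the replicate numbers gave no pairing to use. The deposited column names carry other numbers, which match N-LKO replicate 1 with tumor 1 and N-LKO replicate 3 with tumor 2. These correlations, 0.103 and 0.0797, were the highest between N-LKO livers and tumors. Pairing by these names was not tested, and whether a tumor and a liver share an animal stays unknown. With the replicate block Hamp2 under HFD had an adjusted p of 0.0589, and Smad7, Id1 and Id3 in tumors over WT livers 0.0518, 0.0626 and 0.0605. Of 848 tested gene values under the alternatives, 7 changed sign, none of them called: Bmp6 under HFD (range -0.28 to 0.09 when 1 library was left out) was 0.03, 0.09 and 0.00 after removal of WT replicate 4, of N-LKO replicate 1 and of N-LKO replicate 2, and in tumors over N-LKO and WT livers without tumor 3 it was -0.03 and -0.05 (highest values 0.89 and 0.87). Smad1 was -0.05 under HFD on removal of N-LKO replicate 4 (highest 0.16) and 0.03 in tumors over N-LKO livers without tumor 3 (lowest -0.10). Of 228 values described without a test, 34 changed sign, all of genes near 0 (between -0.03 and 0.18): Smad9 in tumors over N-LKO livers, and in N-LKO over WT livers on WD Hamp2 (-0.36 to 0.71), Bmp2 (-0.10 to 0.13), Bmp6 (-0.08 to 0.05), Smad6 (-0.08 to 0.11) and Id3 (-0.30 to 0.37, highest without WT replicate 2). Of 100 group means, 4 moved by over 1 SD with CPM on total counts. The cause of these shifts was not tested, other than the loss of samples in fits with fewer libraries. With 3 to 35 counts of Hamp2 in the WD livers and 14 of Hamp in tumor 3, small differences of these genes were not detectable at this depth.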
